A study of Mus musculus with 5 samples.

Results

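The clustered protocadherin genes were examined in 5 RNA-seq libraries of cultured mouse neural precursor cells (NPC). Members were the Gene IDs whose name in the deposited expression tables was that of an alpha, beta or gamma protocadherin of the cluster on chromosome 18, which gave 59 of 46078 genes. They divided into 15 alpha, 22 beta and 22 gamma members. The cells came from the subventricular zone, the stem cell niche along the lateral ventricles, of C57BL/6 mice labelled as female, 5 to 8 weeks old and carrying no mutation. The age in the study's methods is older than that in the labels. They were plated on poly-D-lysine, and a day later received phosphate-buffered saline (PBS), a sham exposure. The exposure lasted 1 h (n = 2, replicates 1 and 2) or 8 h (n = 3, replicates 13, 14 and 15). All 5 libraries were therefore from sham-exposed cells, and the comparison open to test was time after PBS. The replicates are called biological in the series description, and the cultures were mixtures of cells, so fewer cells of a type and less RNA per cell cannot be told apart.

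Clustered protocadherins are cadherin-like adhesion proteins with several extracellular cadherin repeats, which bind the same isoform on an opposing membrane. In the alpha and gamma clusters each variable first exon has its own promoter and is spliced to constant exons at the 3′ end of the cluster, which encode a common intracellular tail, while each beta gene is a single large exon. In neurons a cell uses a small, largely random set of alternate isoforms, chosen through CTCF, cohesin and DNA methylation at the promoters, and the C-type isoforms at the end of the alpha and gamma clusters follow different rules. This gives neurites of a cell the means to recognise and avoid each other.

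On GRCm38 all members lay on the plus strand of chromosome 18. The alpha members, apart from a gene model described below, spanned chr18:36930184-37187661, the beta members chr18:37264938-37524479 and the gamma members chr18:37661793-37841873. The positions of all 59 were identical in the GENCODE vM21 annotation. A pair of names differed between the tables and that annotation. ENSMUSG00000023036, written Pcdhga8 in the tables, is Pcdhgc4 in GENCODE and is called Pcdhgc4 here. ENSMUSG00000103458, written Pcdha4 in the tables, is Gm42416, a model that joins an alpha first exon to the gamma constant exons. It spans chr18:36952741-37840200, was counted as an alpha member and was listed at 0 in all 5 libraries. Another pair of Gene IDs (ENSMUSG00000007440 and ENSMUSG00000102206) both carried the name Pcdha11. GENCODE types the gamma gene Pcdhgb8 as a polymorphic pseudogene and the other members as protein-coding.

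Levels were in TPM, a share of all transcripts in a library that is corrected for transcript length. Several libraries went against their labels or each other. The transcript Xist, made from the inactive X chromosome, reached 165 and 199.7 TPM in 8 h replicates 13 and 15 and was at 0.0285 to 0.0611 TPM in the other 3 libraries. The summed TPM of 4 Y-linked genes was 138 to 181 in those 3 libraries and 0.0253 and 0 in replicates 13 and 15. The label of female cells therefore fitted only 8 h replicates 13 and 15. As labelled, their library identifiers also belong to another number series than those of the other 3 libraries. Time could be compared without that split only through 8 h replicate 14, the single 8 h library that resembled the 1 h libraries in this respect. Markers of neural stem and precursor cells were detected throughout (9 of 9 passed the filter on level, with a summed level of 11259 to 14445 TPM). Neuronal markers summed to 216 to 468 TPM and markers of the oligodendrocyte lineage to 1639 to 2461 TPM. Most of each sum came from 1 gene, Fabp7 (7679 to 10076 TPM), Map2 and Olig1 (972 to 1630 TPM) in turn. Map2 was at 405 TPM in 8 h replicate 14 and at 173 to 217 TPM elsewhere. The neuronal sum was highest in replicate 14 through Map2, and no other neuronal marker was highest there. The 5 microglial markers summed to 0.461 to 1.47 TPM, ependymal markers to 16.3 to 27.5 TPM and endothelial markers to 11.8 to 15.4 TPM. Foxj1 (14.4 to 26.7 TPM) made up most of the ependymal sum and Flt1 (9.71 to 13.6 TPM) most of the endothelial sum. Astrocyte markers summed to 491 to 629 TPM in the 3 libraries with Y-linked transcripts and to 821 and 827 TPM in the other 2.

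The 59 members together made up 0.0654% to 0.0729% of all TPM. The gamma cluster was highest, with summed levels of 555 and 619 TPM in 1 h replicates 1 and 2 and of 653, 554 and 629 TPM in 8 h replicates 13, 14 and 15. The beta cluster summed to 86.3 and 90.0 TPM at 1 h and to 65.2, 93.2 and 68.1 TPM at 8 h. The alpha cluster summed to 12.6 and 9.31 TPM at 1 h and to 10.8, 14.4 and 11.3 TPM at 8 h. The order gamma above beta above alpha held in each library, with no overlap between clusters. Between times the groups overlapped in each cluster.

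**Figure D1:**
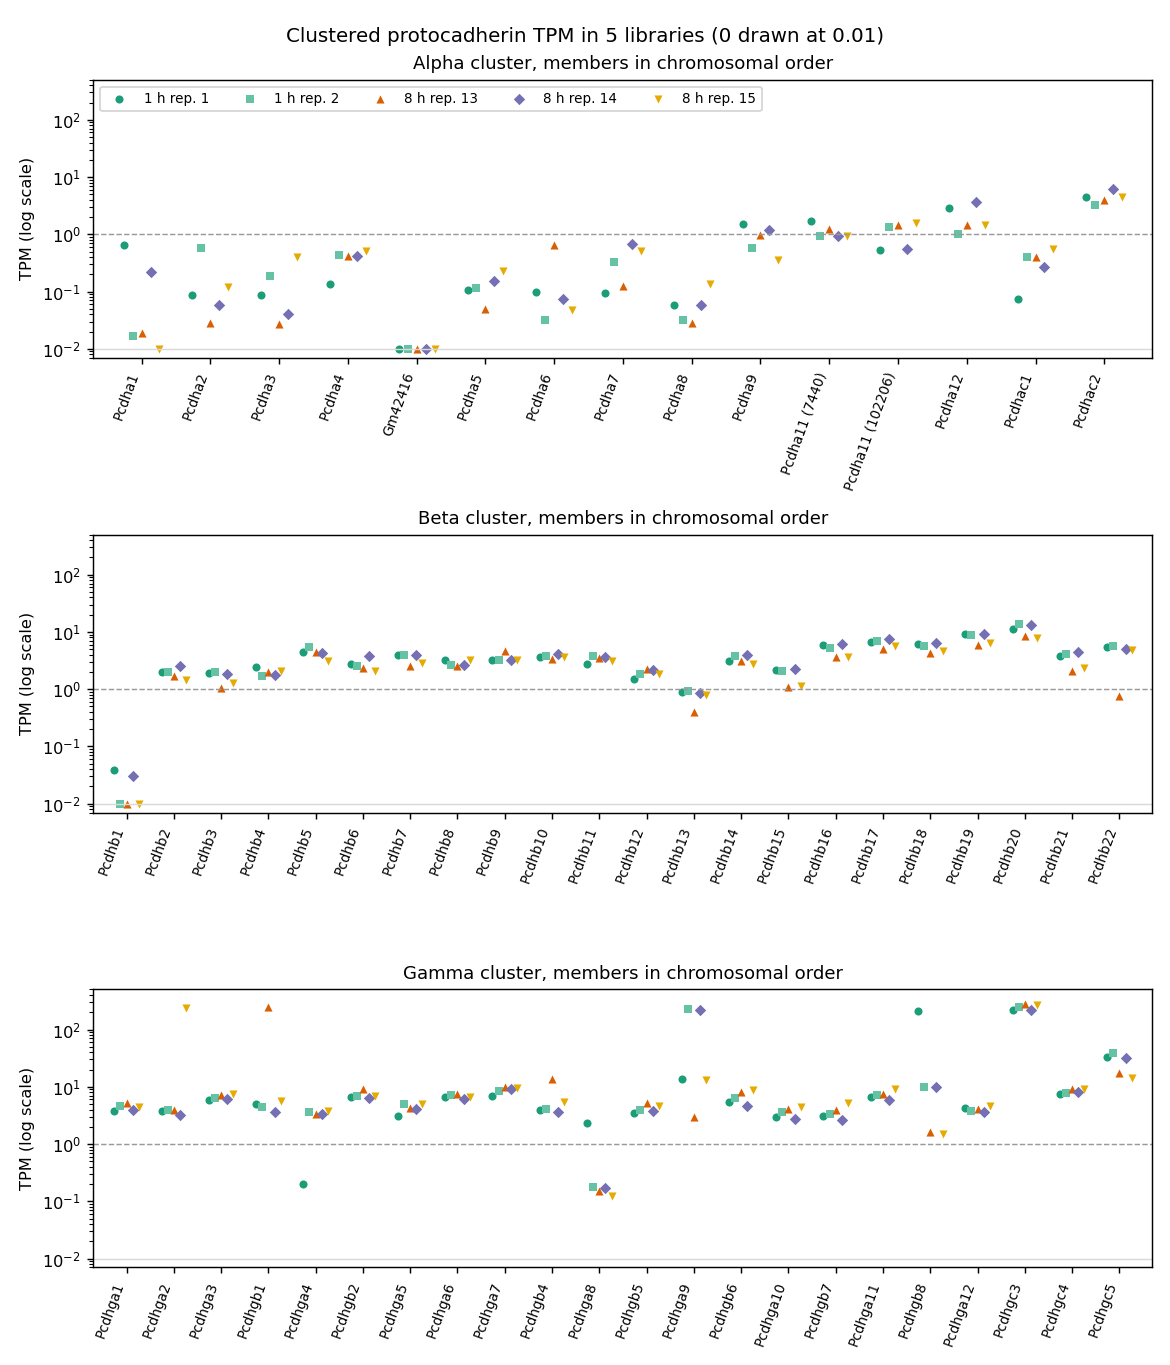
TPM of each of the 59 members (log axis) in the 5 libraries, by cluster and in chromosomal order; each point is 1 library and the dashed line marks 1 TPM. Pcdhgc3 lay at 216 to 279 TPM in every library, 4 gamma members (Pcdhga2, Pcdhgb1, Pcdhga9, Pcdhgb8) reached 208 to 246 TPM in 1 or 2 libraries each, and no beta member exceeded 13.8 TPM.

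Group means of the summed gamma level, with their SD, were 587 ± 45.1 TPM for the 2 libraries at 1 h and 612 ± 51.7 TPM for the 3 libraries at 8 h, a log2 ratio of 0.061. For beta they were 88.1 ± 2.62 and 75.5 ± 15.4 TPM, a log2 ratio of -0.22. For alpha they were 10.97 ± 2.35 and 12.2 ± 1.93 TPM, a log2 ratio of 0.15. With 8 h replicate 14 as the only 8 h library the ratios were -0.082 for gamma, 0.080 for beta and 0.39 for alpha, so the beta and gamma ratios changed sign. The gamma ratio also turned to -0.057 with median-ratio scaling, -0.0053 on FPKM and -0.015 without 1 h replicate 1, and the alpha ratio to -0.056 without 1 h replicate 2.

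Pcdhgc3, a C-type gamma gene that is broadly used in neural and glial cells, was at 219 and 250.3 TPM at 1 h and at 279, 216 and 265 TPM at 8 h. It was the highest member in 4 of the 5 libraries and was level with Pcdhga9 (216 TPM) in 8 h replicate 14. The gene spans chr18:37806364-37841873. Pcdhgc4 was at 7.56 and 7.85 TPM at 1 h and at 8.97, 8.16 and 9.01 TPM at 8 h. Its product is the gamma isoform known to be needed for survival of cortical interneurons. All 3 of its 8 h values lay above both 1 h values.

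Pcdhgc5, a C-type gene of later neuronal stages, was at 32.5 and 38.2 TPM at 1 h and at 17.2, 31.6 and 14.0 TPM at 8 h. Replicates 13 and 15 lay well below the rest, and replicate 14 lay just below the lower 1 h library. The neuronal tubulin Tubb3 divided the libraries in the same way, at 39.8 and 42.9 TPM at 1 h and at 19.02, 37.4 and 19.3 TPM at 8 h. Of 6 neuronal markers that passed a mean of 1 TPM, 3 (Tubb3, Map2 and Syt1) were lower in both replicates 13 and 15 than in the other 3 libraries. This held for 13.5% of all genes that passed. Of the rest 1, Snap25, was higher in both, as were 39.8% of all genes, and Dcx and Rbfox3 did not divide the libraries in this way. The part of neuronal cells in the Pcdhgc5 level was not tested.

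Pcdhac2, the last gene of the alpha cluster and a C-type gene used by serotonergic neurons, was at 4.57 and 3.28 TPM at 1 h and at 3.98, 6.13 and 4.40 TPM at 8 h. It was the highest alpha member in each library and carried 35.3% to 42.7% of the alpha sum. The other alpha C-type gene, Pcdhac1, stayed between 0.075 and 0.554 TPM.

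The 19 alternate gamma genes, named A or B after their subfamily, were unevenly used in the tables. In each library a single A or B member stood at 208 to 246 TPM, and which member it was differed between libraries. At 1 h it was Pcdhgb8 (208 TPM) in replicate 1 and Pcdhga9 (229 TPM) in replicate 2. At 8 h it was Pcdhgb1 (246 TPM) in replicate 13, Pcdhga9 (216 TPM) in replicate 14 and Pcdhga2 (235 TPM) in replicate 15. These members held 68.9% to 72.3% of the summed A and B level. They stood 15.3 to 22.7 times above the next A or B member and at 0.880 to 1.00 of the Pcdhgc3 level of the same library. The total of the A and B members varied less than its make-up, from 296 to 348 TPM.

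**Figure D2:**
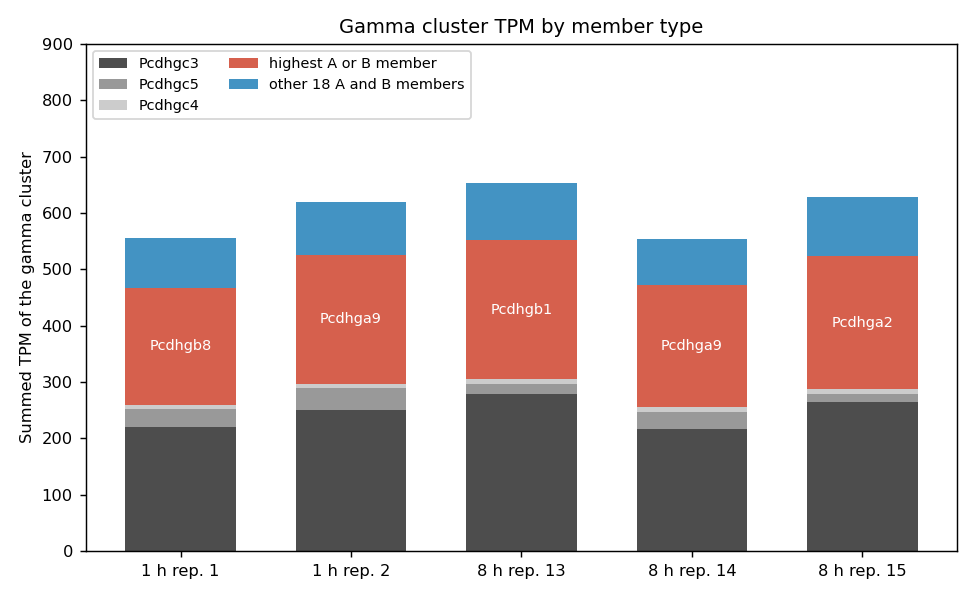
Summed TPM of the gamma cluster in each library, divided into the 3 C-type genes, the highest A or B member (named in the bar) and the other 18 A and B members. The highest member was Pcdhgb8, Pcdhga9, Pcdhgb1, Pcdhga9 and Pcdhga2 in turn, at 208 to 246 TPM, and the rest summed to 82.8 to 106 TPM.

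Outside the library where it was high, Pcdhgb1 was at 3.66 to 5.70 TPM and Pcdhga2 at 3.24 to 3.97 TPM. Pcdhgb8 was at 10.1 and 9.74 TPM in the libraries in which Pcdhga9 was high, 1 h replicate 2 and 8 h replicate 14, and at 1.61 and 1.51 TPM in 8 h replicates 13 and 15. Pcdhga9 was at 13.6, 3.01 and 12.9 TPM in 1 h replicate 1 and 8 h replicates 13 and 15. The 2 libraries that shared a highest member were thus of different times.

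The effective number of A and B members, the inverse of the sum of squared shares, was 1.89 to 2.08 in the 5 libraries. With the highest member of each library left out it was 13.7 to 15.1, of 18. The sum of those 18 was 87.4 and 93.1 TPM at 1 h and 102.02, 82.8 and 106 TPM at 8 h. Replicates 13 and 15 again held the highest values, with replicate 14 below both 1 h libraries.

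A feature of the annotation ran along with this pattern, and was noticed after the values were seen. Of the 19 A and B genes in the tables, 5 (Pcdhga2, Pcdhgb1, Pcdhgb4, Pcdhga9 and Pcdhgb8) have their annotated end at position 37841870, and the other 14 end 3 bases later, at 37841873. The highest and the next highest A or B member belonged to these 5 genes in all 5 libraries. The 5 genes summed to 234, 252, 268, 236 and 261 TPM, in the order 1 h replicates 1 and 2 and 8 h replicates 13, 14 and 15. The other 14 summed to 61.1, 70.6, 79.9, 62.5 and 80.7 TPM, and none of them exceeded 9.94 TPM in any library. Since reads from the constant exons can come from any of the 22 gamma genes, the level of a single A or B gene depends on how the authors' software divided those reads. Whether that division set the highest member was not tested.

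**Figure D3:**
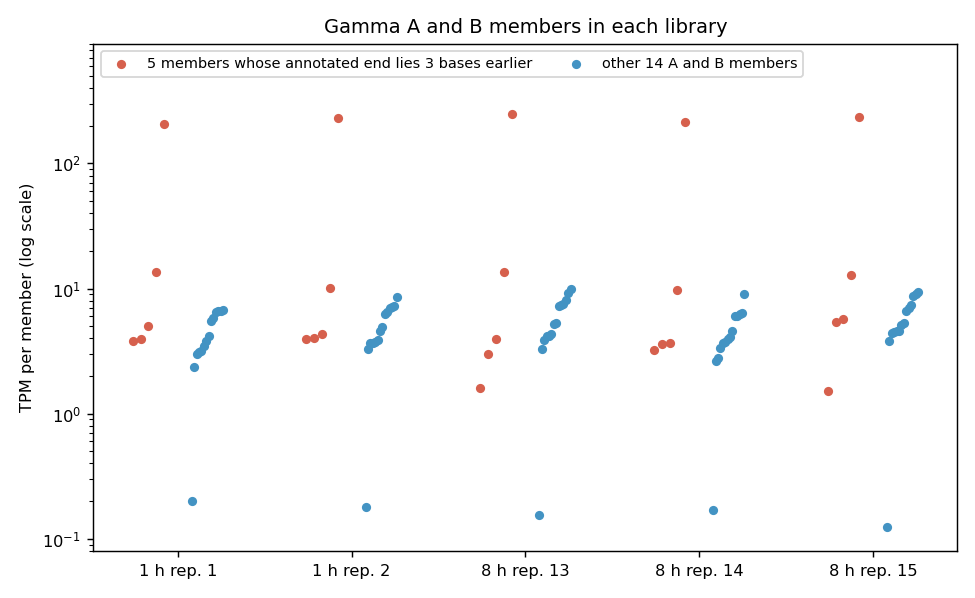
TPM of the 19 gamma A and B members (log axis) in each library, divided by annotated end; each point is 1 gene, with points spread sideways in order of level. In every library the 2 highest points belong to the 5 genes whose annotated end lies 3 bases earlier, and none of the other 14 genes exceeds 9.94 TPM.

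The share of each gene's annotated exon bases that is also exon of another member was 0% for the median beta gene, with Pcdhb21 and Pcdhb22 overlapping in their exons (at most 9.67% of a gene's exon bases). The median was 44.8% for gamma A genes, 45.0% for gamma B genes, 37.9% for gamma C genes and 53.6% for alternate alpha genes. Levels of beta genes were therefore largely free of shared exon sequence, and those of alpha and gamma genes were not. A similar picture held for exact words of the read length, with at most 7.23% of the words of a beta gene found in another member.

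The 14 A and B genes with the later end had mean levels of 0.595 (Pcdhga8) to 8.75 TPM (Pcdhga7). Pcdhga7 was at 6.78 and 8.60 TPM at 1 h and at 9.94, 8.98 and 9.42 TPM at 8 h, with all 8 h libraries above both 1 h libraries. Pcdhga8 and Pcdhga4 stood apart in 1 h replicate 1. Pcdhga8 (ENSMUSG00000103897) was at 2.35 TPM there and at 0.125 to 0.180 TPM in the other 4 libraries. Pcdhga4 was at 0.201 TPM there and at 3.29 to 3.78 TPM elsewhere. Among the 5 genes with the earlier end, Pcdhgb4 was at 13.5 TPM in 8 h replicate 13 and at 3.61 to 5.44 TPM elsewhere. Pcdhga8, Pcdhga4 and Pcdhgb4 thus each deviated in 1 library.

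The beta cluster had no such dominant gene, and Pcdhb20, Pcdhb19 and Pcdhb17 were its 3 highest members, in that order, in every library. Pcdhb20 was highest in every library, at 11.3 and 13.8 TPM at 1 h and at 8.37, 13.3 and 7.88 TPM at 8 h, which was 11.6% to 15.3% of the beta sum. Pcdhb19 was at 9.21 and 8.75 TPM at 1 h and at 5.96, 9.34 and 6.46 TPM at 8 h. In both genes 8 h replicates 13 and 15 lay below the other 3 libraries and replicate 14 lay within or just above the range at 1 h. Pcdhb17, Pcdhb18 and Pcdhb16 came next, with mean levels of 6.35, 5.49 and 4.91 TPM over the 5 libraries. These 5 genes lie side by side near the 3′ end of the beta cluster.

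The effective number of beta members was 14.6 to 16.2, of 22. Chromosomal order and level were related across the 22 beta genes (Spearman's rho = 0.61 on mean TPM, and 0.35 to 0.71 in single libraries), and across 12 alternate alpha genes (0.63), as a description over genes that share libraries. Pcdhb1, at the 5′ end of the cluster, was at 0 in 3 libraries and at 0.039 and 0.031 TPM in 1 h replicate 1 and 8 h replicate 14. Pcdhb13 was at 0.401 to 0.944 TPM. The other 20 beta genes had a mean of at least 1 TPM.

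Pcdhb22 was at 5.37 and 5.71 TPM at 1 h and at 0.767, 5.08 and 4.89 TPM at 8 h. The low value of 8 h replicate 13 stood apart from the other 4, and Pcdhb22 fell there from 6.22% and 6.35% of the beta sum in the 1 h libraries to 1.18%. Pcdhb3 was at 1.95 and 1.98 TPM at 1 h and at 1.03, 1.83 and 1.28 TPM at 8 h. It was lower in each 8 h library than in both 1 h libraries, with replicate 14 closest to them.

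Most beta genes were lower in 8 h replicates 13 and 15 than in the other 3 libraries. Both replicates lay below all 3 in 13 of the 20 beta genes that passed a mean of 1 TPM, against 13.5% of all 13870 genes that passed it. They lay above all 3 in 0 beta genes, against 39.8% of all genes. The ratio of the mean of replicates 13 and 15 to the mean of the other 3 libraries had a median of 0.730 over the 20 beta genes (0.524 for Pcdhb15 to 1.20 for Pcdhb9) and of 1.11 over all 13870 genes. For 13 gamma A and B genes with the later end that passed, the median was 1.21, near that of all genes. Of all 21 gamma genes that passed, 12 were above the other 3 libraries in both replicates and 3 were below, among them Pcdhgc5. The difference between the beta and gamma genes was not tested. Replicates 13 and 15 differ from the rest in Xist and Y-linked transcripts and, as labelled, in their number series. They include no 1 h library, and these differences cannot be told apart. In the same 2 libraries 3 of 6 tested neuronal markers, among them Tubb3, were below the other 3 libraries and 1, Snap25, was above. Summed astrocyte markers, mostly Aldh1l1 (455 to 724 TPM over the 5 libraries), were higher, with 4 of 5 astrocyte markers above the other 3 libraries. Of 9 neural stem and precursor markers, 7 were above the other 3 libraries and 1 was below. The part of cell composition in the beta pattern was not tested.

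**Figure D4:**
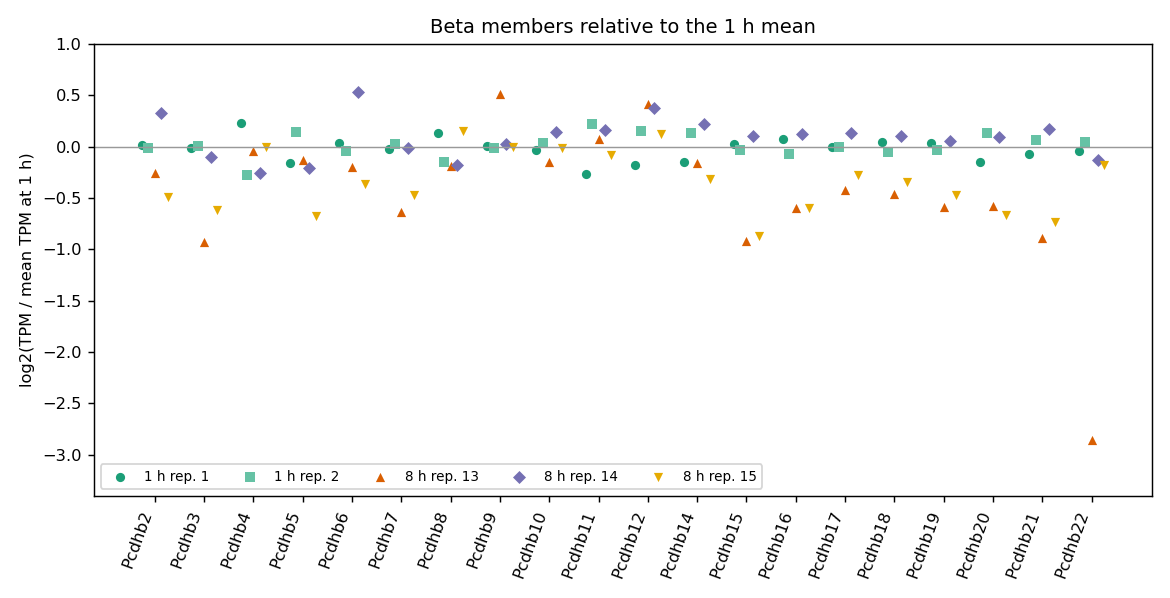
Log2 of the TPM of each of 20 beta members over its mean at 1 h, in 5 libraries; each point is 1 library. The points of 8 h replicates 13 and 15 lie below those of the other 3 libraries in 13 of 20 genes, and Pcdhb22 in 8 h replicate 13 lies lowest.

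Alpha members were near the limit of the tables. Of 15, only Pcdhac2, Pcdha12 and the pair named Pcdha11 had a mean of at least 1 TPM. Pcdha12 was at 2.92 and 1.03 TPM at 1 h and at 1.44, 3.60 and 1.47 TPM at 8 h, so that the groups overlapped. The Pcdha11 gene ENSMUSG00000007440 was at 1.73 and 0.918 TPM at 1 h and at 1.23, 0.928 and 0.938 TPM at 8 h. The Pcdha11 gene ENSMUSG00000102206 was at 0.522 and 1.36 TPM at 1 h and at 1.47, 0.560 and 1.60 TPM at 8 h. In each of these 3 genes the 2 libraries at 1 h differed more from each other than the group means did.

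Pcdha9 was at 1.4995 and 0.575 TPM at 1 h and at 0.956, 1.20 and 0.360 TPM at 8 h. Pcdha1 to Pcdha8, apart from Gm42416, were each at 0.669 TPM or less in every library, and their rank changed between libraries. In 1 h replicate 1 Pcdha1 reached 0.651 TPM, in 1 h replicate 2 Pcdha2 reached 0.588 TPM and in 8 h replicate 13 Pcdha6 reached 0.652 TPM, each with 0 to 0.216 TPM in the other libraries. With 38.0% to 100.0% of the exon bases of each alternate alpha gene shared, differences between libraries were not followed further.

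The comparison of 8 h with 1 h was tested with limma on log2(TPM + 1) over the 13870 genes with a mean of at least 1 TPM, of which 45 were members (4 alpha, 20 beta and 21 gamma). Fold changes below are on the log2(TPM + 1) scale, on which a low gene shows less than its true change. A gene was called when its Benjamini-Hochberg adjusted p was 0.05 or less and its log2 fold change exceeded 1 in either direction. No member was called, 0 of 45, against 6 of 13870 genes (0.0433%). At an unadjusted p under 0.05 there were 2 members, Pcdhgb8 and Pcdhgc5, against 12.3% of all genes. Of the 45, 24 had a fold change above 0 and 21 below, with a median of 0.054, where the median of all genes was 0.10. No member passed at an adjusted p alone.

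Beta genes had a fold change below 0 in 16 of 20, with a median of -0.18, where 34.1% of all genes were below 0. With 8 h replicate 14 as the only 8 h library, 6 of 20 were below 0. Gamma genes had a fold change below 0 in 4 of 21, with a median of 0.14, and in 15 of 21 when replicate 14 alone was set against 1 h. Alpha genes were below 0 in 1 of 4. The beta and gamma medians thus took the opposite sign without replicates 13 and 15 (0.092 and -0.11). The median of all genes moved as well, from 0.10 in the full fit to 0.013 with replicate 14 as the only 8 h library. The share of 34.1% below 0 belongs to the full fit, and that share was not computed for replicate 14 alone.

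**Figure D5:**
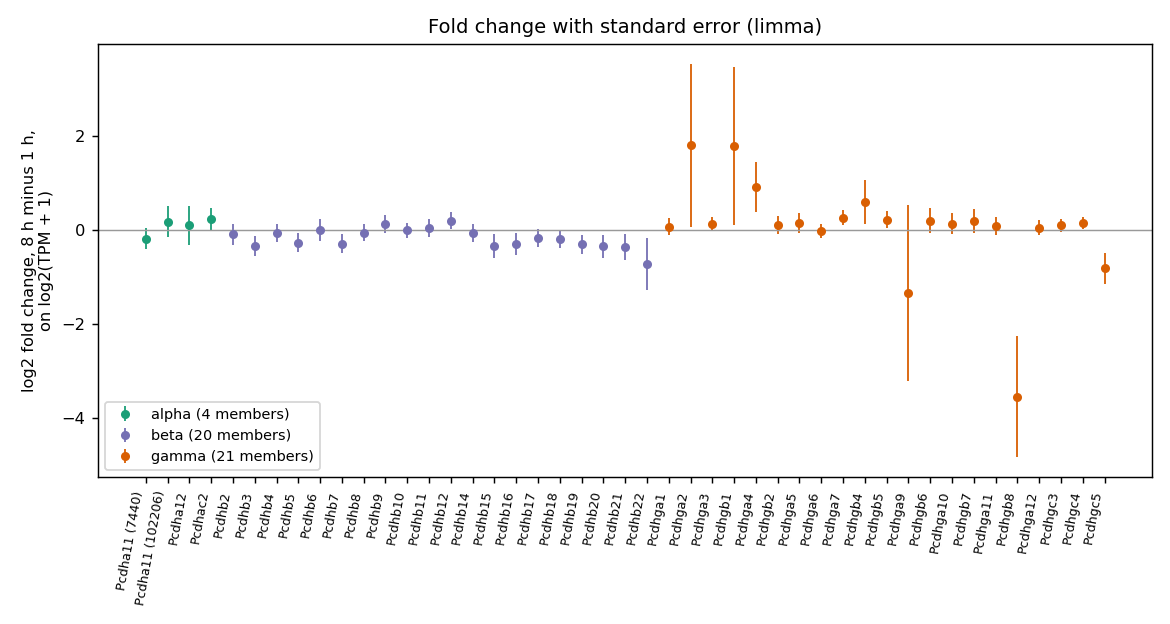
Log2 fold change of 8 h against 1 h on log2(TPM + 1) for the 45 members that passed the filter; bars are the standard error from limma. Of the 20 beta members 16 lie below 0 and of the 21 gamma members 17 lie above 0, and the 4 gamma members that were highest in single libraries have the widest bars.

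Pcdhgb8 had the largest fold change, -3.54 ± 1.29 (SE; limma adjusted p = 0.385), and its groups did not overlap, with 208 and 10.1 TPM at 1 h and 1.61, 9.74 and 1.51 TPM at 8 h. It was -1.43 without 1 h replicate 1, -5.66 without 1 h replicate 2 and -2.17 with 8 h replicate 14 as the only 8 h library. Pcdhgb8 belongs to the A and B genes with the earlier end, and its level depends on how reads from the constant exons were divided. Pcdhgc5 had a fold change of -0.81 ± 0.33 (limma adjusted p = 0.403), and it passed both thresholds only when 8 h replicate 14 was left out (-1.14, adjusted p = 0.00776 by limma), where 568 genes (4.1%) passed. Without that library 3 members, Pcdhb20, Pcdhb21 and Pcdhgc5, had a limma adjusted p of 0.05 or less at any fold change, against 19.9% of all genes. With replicate 14 as the only 8 h library the fold change of Pcdhgc5 was -0.15 (limma adjusted p = 0.824). Pcdhgc3 had a fold change of 0.10 ± 0.14 and Pcdhgc4 of 0.16 ± 0.13, with limma adjusted p = 0.728 and 0.581. Pcdhac2 had a fold change of 0.24 ± 0.23 (limma adjusted p = 0.616). Among beta genes the fold change was -0.34 ± 0.24 for Pcdhb20, -0.30 ± 0.21 for Pcdhb19 and -0.71 ± 0.56 for Pcdhb22, which was -0.13 without 8 h replicate 13 and -0.11 with replicate 14 as the only 8 h library. For Pcdhga2, Pcdhgb1 and Pcdhga9 the standard errors (1.74, 1.68 and 1.88) were close to or above the size of the fold changes (1.81, 1.80 and -1.34).

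All 3 of the 8 h libraries lay above both 1 h libraries in 2 of the 45 members, Pcdhgc4 and Pcdhga7, against 23.7% of all genes. They lay below both in 4 members, Pcdhgb8, Pcdhgc5, Pcdhb22 and Pcdhb3, against 9.43%. The fold changes of Pcdhga7 and Pcdhb3 were 0.27 ± 0.15 and -0.33 ± 0.21. That of Pcdhga7 was 0.12 without 1 h replicate 1, and that of Pcdhb3 was -0.065 with replicate 14 as the only 8 h library.

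The deposited table of counts listed 7599 genes, with column totals of 13988166 to 18572154, and held 2 members. Pcdhb2 had 57 and 69 counts at 1 h and 80, 63 and 59 counts in the columns labelled 8 h replicates 13, 14 and 15. Pcdhgc4 had 342 and 511 counts at 1 h and 454, 477 and 618 counts at 8 h. Neither separated the groups. The log2 fold change was -0.077 ± 0.31 for Pcdhb2 and 0.11 ± 0.18 for Pcdhgc4, with adjusted p = 0.983 and 0.969 in edgeR's quasi-likelihood test. Over all its genes, 0 of 7590 tested genes (0%) were called, with 199 at an unadjusted p under 0.05 in edgeR, 227 in DESeq2 and 178 in limma-voom, and 0 called by either of these. The 8 h columns did not match the expression tables of the same libraries. Counts and TPM were each taken relative to their own mean over the 1 h libraries, and their differences were centred on the median. Of 6860 genes, 25.8%, 26.8% and 42.8% agreed within 0.1 log2 units for 8 h replicates 13, 14 and 15. The 1 h libraries reached 89.3% and 89.0%, but each is part of that reference, so these values are not on the same footing. The 8 h counts are given as labelled only. The column of replicate 13 agreed best with the expression table of replicate 14 (78.8%) and the column of replicate 15 with that of replicate 13 (79.0%). The column of replicate 14 had no close match, its best being the expression table of 1 h replicate 2 (41.0%). No column agreed above 42.8% with the expression table of replicate 15, so an exchange of 8 h labels did not account for all columns. Which of the 8 h labels is right was not settled, and the replicate numbers of TPM values follow the labels of the expression tables.

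Genes that act with the clustered protocadherins were read from the same limma fit. No gene of these lists was called. At an unadjusted p under 0.05 there were 3 of 9 tested non-clustered protocadherins (Pcdh1, Pcdh15 and Pcdh19), 0 of 21 chromatin genes, 1 of 22 partners (Wasf2) and 4 of 7 neighbouring genes (Hdac3, Taf7, Wdr55 and Dnd1), against 12.3% of all genes. Dnd1 was near the filter, at 0.595 and 0.599 TPM at 1 h and at 2.13, 0.998 and 1.68 TPM in 8 h replicates 13, 14 and 15. It passed only through its 8 h values, so its place among these genes is no independent result. The counts of fold changes below 0 in these lists stand against 34.1% of all genes. Of 12 non-clustered protocadherins, single genes with related extracellular repeats, 9 passed the filter, with 6 fold changes below 0 and a median of -0.30. Pcdh10, an adhesion protein that recruits the actin-regulating WAVE complex, was highest of them on average, at 54.4 and 56.2 TPM at 1 h and at 39.0, 48.4 and 47.1 TPM at 8 h. Pcdh19, an X-linked gene whose loss causes an epilepsy, was at 11.3 and 9.73 TPM at 1 h and at 7.44, 4.94 and 6.02 TPM at 8 h. Its groups did not overlap, and its fold change was -0.70 ± 0.19. The summed non-clustered level, 155 to 195 TPM, lay above the beta sum and below the gamma sum in every library.

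Regulators of cluster chromatin were expressed throughout, and 21 of 22 were found by name, 14 with a fold change above 0 and 7 below (median 0.098, against 0.10 for all genes). Ctcf, which binds the cluster promoters and their enhancers, was at 82.2 and 78.4 TPM at 1 h and at 94.2, 84.3 and 104 TPM at 8 h. Rad21, a cohesin subunit, was at 189 and 187 TPM at 1 h and at 277, 172 and 301 TPM at 8 h, with replicates 13 and 15 above the other 3 libraries. Dnmt3b, a methyltransferase that acts on the cluster promoters in development, was at 1.53 to 2.34 TPM. Smchd1, a repressor of the clusters, was at 41.4 to 52.3 TPM.

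Of 23 partners and signalling genes, 22 passed, 7 with a fold change above 0 and 15 below (median -0.054). Fyn, a kinase bound by the alpha tail, was at 282 to 392 TPM, and Ptk2, the focal adhesion kinase inhibited by the constant tails, was at 72.0 to 88.3 TPM. Ptk2b, a related kinase, was at 1.12 to 2.68 TPM and Ret was at 0.0569 to 0.131 TPM. Wasf2, a WAVE complex subunit, was at 35.1 and 33.1 TPM at 1 h and at 47.2, 40.8 and 45.7 TPM at 8 h (fold change 0.37 ± 0.11).

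Of 9 genes listed as neighbours of the clusters, 8 were found and 7 passed, with 5 fold changes above 0 and 2 below. Among the 5 is Dnd1, which passed only through its 8 h values. Hdac3, a histone deacetylase gene beyond the gamma cluster, was at 85.3 and 87.9 TPM at 1 h and at 138, 124 and 131 TPM at 8 h (fold change 0.59 ± 0.094, limma adjusted p = 0.24). On counts, with the 8 h columns as labelled, Hdac3 showed no such change (log2 fold change -0.0016, edgeR adjusted p = 0.998). Taf7, between the beta and gamma clusters, was at 11.1 and 10.97 TPM at 1 h and at 7.91, 8.43 and 7.22 TPM at 8 h. In the TPM of both genes the groups did not overlap and replicate 14 moved with replicates 13 and 15. This was in contrast to Pcdhb20 and Pcdhgc3, where replicate 14 lay with the 1 h libraries or below them.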

How the data were processed

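Strand-specific poly-A RNA libraries from 5 cultures were sequenced by the authors as paired reads, mapped to GRCm38 with STAR through nf-core/rnaseq, and counted over genes with featureCounts. Base calls were converted with bcl2fastq 2.19.1.403, per the labels. The authors deposited raw counts of 7599 genes (filter not given in the sources used here) and, for each library, a table of per-base coverage, FPKM and TPM for each gene, in the layout of StringTie, a tool that no source used here names. Deposited coverage (signal) and FPKM values were used only for checks.

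The members and gene lists were chosen with earlier results of these data known. Genes with the same Gene ID were summed within a library. TPM values were tested with limma 3.58.1 (trend, R 4.3.3) on log2(TPM + 1) over genes whose mean TPM reached 1, and counts with edgeR 4.0.16 (quasi-likelihood, TMM), each with Benjamini-Hochberg adjustment over all genes. DESeq2 1.42.0 and limma-voom were alternatives. Of the 59 members, 14 did not pass the TPM filter and were described only. Scripts were tested on simulated data with independent noise, no split between libraries and a lower fold change threshold. That test does not cover libraries divided as these are. The depth behind a TPM value was not given, so no counting interval was computed. Among members, the text names the 5 highest of each cluster, the C-type genes, those whose groups did not overlap, and those listed at 0. Pcdhgb4, Pcdhga4, Pcdhga8 and other members were added after their values were seen. Promoters and proteins of the members were not used here.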

Additional observations from a re-analysis of the deposited data

How the results depend on the processing

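No paired analysis was possible because the 1 h and 8 h groups share no replicate number. The count of all genes called on TPM (6) became 19 with the identifier series as a term and 0 without the filter on low TPM, and ranged from 0 to 568 when 1 library was left out (568 without 8 h replicate 14). The count of members called stayed at 0 in these settings and ranged from 0 to 1 when 1 library was left out, the 1 being Pcdhgc5 without 8 h replicate 14 (-1.14). On counts, 0 genes were called in all alternatives run. With identifier series 1 alone, which leaves 8 h replicate 14 against both 1 h libraries, the log2 ratio of sums was 0.080 for beta and -0.082 for gamma. The series was taken from the labels, under which the 8 h count columns did not match the expression values. Settings that use the series, also those on counts, rest on these unsettled labels. The sum ratio of gamma was 0.045 without the highest A or B member of each library and 0.056 without the 5 genes with the earlier end, both alternatives added after the data were seen.

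With series 1 alone, and equally with series as a term, the log2 fold change on TPM turned to -0.28 for Pcdha11 (ENSMUSG00000102206), 0.090 for Pcdhb20, 0.051 for Pcdhb19, 0.12 for Pcdhb17, 0.093 for Pcdhb18, 0.11 for Pcdhb16, -0.12 for Pcdhgc3, 1.91 for Pcdhga9, -0.29 for Pcdhgb1 and -0.20 for Pcdhga2. Median-ratio scaling turned Pcdhgc3 to -0.011. With 1 library left out in turn, Pcdha12 ranged from -0.37 (without 1 h replicate 2) to 0.58, being also -0.20 without 8 h replicate 14. Pcdha11 ranged from -0.43 to 0.079 (ENSMUSG00000007440) and from -0.13 to 0.50 (ENSMUSG00000102206), turning without 1 h replicate 1. Pcdhga9 ranged from -3.33 to 0.66 (without 1 h replicate 2), Pcdhgb1 from -0.023 (without 8 h replicate 13) to 2.84 and Pcdhga2 from -0.088 (without 8 h replicate 15) to 2.81. On counts, Pcdhb2 turned to 0.042 with series as a term and ranged from -0.17 to 0.072 (without 8 h replicate 15), and Pcdhgc4 ranged from -0.050 (without 1 h replicate 1) to 0.30. The cause was not tested. None of these fold changes passed the threshold in the full data.

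With 2 libraries against 3, and shared constant exons, differences between single alpha or gamma genes were not resolved, and TPM gives no depth per gene.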
